A study of Mus musculus with 8 samples.

Results

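The genes described here are 10 members of the cellular response to low oxygen, read from a table of 20189 genes measured by RNA-seq in 4T1, a metastatic tumour cell line from the mouse mammary gland. They were chosen by name, and all 10 were in the table: Hif1a, Vegfa, Adm, Bnip3, Ndrg1, Egln1, Egln3, Car9, P4ha1 and Pdk1. Cells had been kept for 48 h with 5 mM acetate, which cells can convert to acetyl-CoA, or with water as vehicle, and no allele, vector or other agent was named for either group. Each group had 4 libraries, and acetate and vehicle libraries of the same number shared an experiment code in their labels, so that the 8 libraries form 4 pairs, called replicates 1 to 4. The labels do not say how the experiments differed from each other, and 4T1 is a single line, so p-values measure the spread between repeats of cultures of that line.

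Values are normalised read counts, in which reads per gene were scaled so that each library adds up to 20000000 units, and 1 read was worth from 0.682 units in the deepest library to about 1 unit in the shallowest. Libraries held from 19.9 to 29.3 M reads (M, mega). Epithelial markers were high (Epcam, Krt8, Krt18, Cdh1 and Krt14, all 5 in the table, with summed levels of 41789 to 55504 units in vehicle and 43907 to 55590 units in acetate). The endothelial markers in the table (Pecam1, Cdh5 and Tek, 3 of 5) summed to at most 7.06 units in any library, and Ptprc, the 1 of 4 leucocyte markers in the table, stayed at or under 3.02 units. Of 4 fibroblast markers 3 were in the table, with Pdgfra at 229 to 1961 units and Pdgfrb and Dcn at 0 in vehicle replicate 1 and at most 33.1 and 14.5 units elsewhere.

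In cells with enough oxygen, the prolyl hydroxylases encoded by Egln1, Egln2 and Egln3 mark the HIF-1α protein, the product of Hif1a, and the VHL ubiquitin ligase then has it destroyed. When oxygen is short the mark is not made, HIF-1α accumulates, pairs with ARNT and binds DNA at the core letters ACGTG or GCGTG, and genes for vessel growth, glycolysis, pH balance and mitochondrial turnover are transcribed. The control acts mainly on the protein, so the Hif1a transcript does not by itself report how active the pathway is, whereas its target genes respond in their mRNA.

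The stretches of DNA before the start sites of 4 of these genes, Bnip3, P4ha1, Hif1a and Vegfa, are shown as examples. Their part in the levels of these genes was not tested. Each is the 250 bases before the start of a RefSeq transcript (GRCm38.p6), in the direction of the gene, with matches to ACGTG or GCGTG on either strand in capitals. On the opposite strand these motifs read CACGT and CACGC, and a CACGTG counts as 2 overlapping matches.

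Bnip3, chr7:138909507-138909756, minus strand: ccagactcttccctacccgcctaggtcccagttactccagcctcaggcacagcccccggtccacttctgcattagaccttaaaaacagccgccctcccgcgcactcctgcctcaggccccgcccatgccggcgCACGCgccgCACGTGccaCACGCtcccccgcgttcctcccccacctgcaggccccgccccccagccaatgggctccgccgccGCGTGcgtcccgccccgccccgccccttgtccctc
P4ha1, chr10:59323046-59323295, plus strand: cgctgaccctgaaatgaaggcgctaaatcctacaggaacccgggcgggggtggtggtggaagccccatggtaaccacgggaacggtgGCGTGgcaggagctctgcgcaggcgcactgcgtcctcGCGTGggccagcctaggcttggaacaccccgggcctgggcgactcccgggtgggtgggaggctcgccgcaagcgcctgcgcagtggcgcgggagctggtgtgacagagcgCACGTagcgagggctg
Hif1a, chr12:73907617-73907866, plus strand: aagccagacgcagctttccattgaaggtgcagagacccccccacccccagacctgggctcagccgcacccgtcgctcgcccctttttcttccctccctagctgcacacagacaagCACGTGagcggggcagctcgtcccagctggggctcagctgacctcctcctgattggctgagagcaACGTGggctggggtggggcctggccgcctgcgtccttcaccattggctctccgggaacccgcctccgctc
Vegfa, chr17:46032378-46032627, minus strand: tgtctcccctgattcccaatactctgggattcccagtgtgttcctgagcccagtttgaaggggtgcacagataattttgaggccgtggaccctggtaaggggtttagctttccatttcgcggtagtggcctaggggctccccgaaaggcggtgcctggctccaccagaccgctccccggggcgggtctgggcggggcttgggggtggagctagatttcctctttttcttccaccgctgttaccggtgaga

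Counted over windows from 250 bases before to 50 after each start, Bnip3 had 5 matches, P4ha1 and Hif1a had 3 each, and the Vegfa window shown had 0. The RefSeq table held 11 such windows for 9 of the 10 genes, with none for Ndrg1, and each of the 9 genes had at least 1 match in at least 1 window. A later Vegfa start, within the gene, had 2 matches. ACGTG itself was present for 7 of the 9 genes, the exceptions being Adm and Pdk1, which had GCGTG. Counted by window, 9 of the 11 (81.8%) held either motif and 7 of the 11 (63.6%) held ACGTG. Of all 32851 windows of this length, 43.8% held either motif and 19.6% held ACGTG. These matches describe letters and do not show binding.

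Levels of the 10 genes were first set side by side per length of exon. In vehicle, Ndrg1 was highest at 1635 ± 1133 units per kilobase (mean ± SD, n = 4), followed by Bnip3 at 1413 ± 835, Egln3 at 1335 ± 876, P4ha1 at 1113 ± 436, Egln1 at 1077 ± 299.7, Car9 at 925 ± 540 and Hif1a at 766 ± 50.4 units per kilobase. Vegfa had 446 ± 222, Pdk1 334 ± 169.6 and Adm 107 ± 84.8 units per kilobase. The last 3 kept their order in all 8 libraries, and Hif1a was above Vegfa in all 8. Among the first 7, no gene was above the next one in all 8 libraries, and neighbouring means differed by less than the larger of their SDs. The order turned on the experiment: Hif1a had the highest level per kilobase of the 10 genes in both libraries of replicate 1 (799 units per kilobase in vehicle and 882 in acetate) and ranked 7 of 10 in the other 6 libraries (699 to 898 units per kilobase), where Ndrg1 ranked 1.

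**Figure D1:**
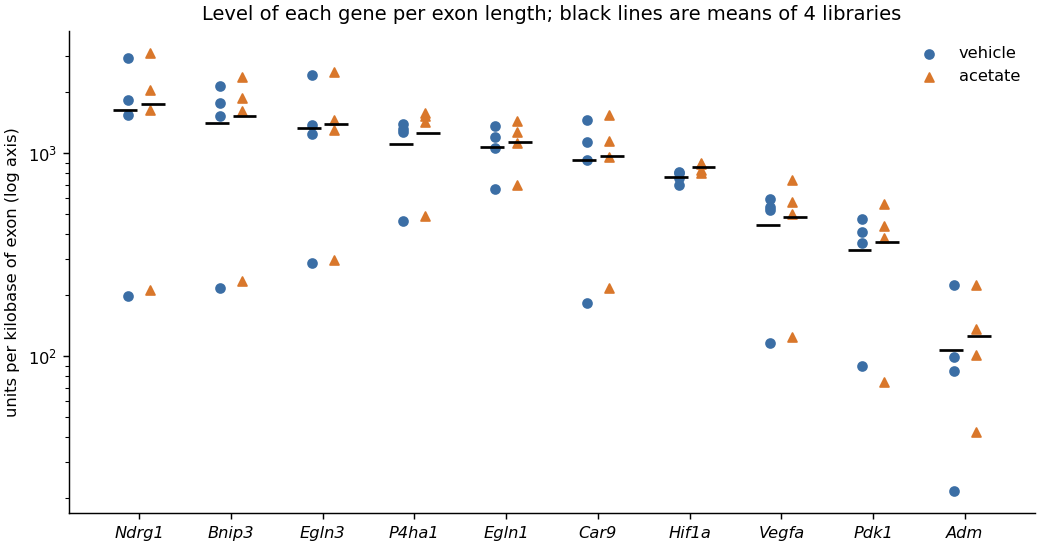
Level of each gene in normalised units per kilobase of exon (log axis), with a blue circle for each vehicle library, an orange triangle for each acetate library and black lines at the means of 4 libraries. The Hif1a libraries lie between 699 and 898 units per kilobase, while for the other genes the vehicle and acetate libraries of replicate 1 lie below the rest, for Ndrg1 at 198 and 213 against 1547 to 3116.

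Across the 4 experiments, 9 of the 10 genes moved together over a wide range and Hif1a stayed nearly level. Hif1a (ENSMUSG00000021109, chr12:73901375-73947530, plus strand) encodes the oxygen-regulated subunit of HIF-1 and had 4711, 4120, 4450 and 4772 units in vehicle replicates 1 to 4 and 5201, 4900, 4720 and 5297 units in the acetate libraries, so that its highest library was 1.29 times its lowest. Ndrg1 (ENSMUSG00000005125, chr15:66929318-66969640, minus strand), a stress-induced gene linked to differentiation, had 1309, 12140, 10206 and 19472 units in vehicle and 1402, 13494, 10745 and 20552 units in acetate. Both libraries of replicate 1 were thus far below the other 6, and both of replicate 4 were above all others. Averaged over both treatments on the log2(value + 1) scale, Ndrg1 was 10.2-fold lower in replicate 1 than in the mean of the others.

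Bnip3 (ENSMUSG00000078566, chr7:138890836-138909519, minus strand), which directs the removal of mitochondria, followed the same order, with 492, 4014, 3454 and 4837 units in vehicle and 532, 4257, 3642 and 5378 units in acetate, and was 8.22-fold lower in replicate 1. Car9 (ENSMUSG00000028463, chr4:43506966-43513729, plus strand), a membrane carbonic anhydrase that exports acid equivalents, had 419.9, 2628, 2134 and 3345 units in vehicle and 501, 2661, 2215 and 3568 units in acetate. It was 5.89-fold lower in replicate 1. Pdk1 (ENSMUSG00000006494, chr2:71873224-71903858, plus strand), the kinase that shuts pyruvate out of the mitochondrial cycle by inhibiting pyruvate dehydrogenase, had 698, 3176, 2826 and 3705 units in vehicle and 581, 3425, 2961 and 4379 units in acetate, and was 5.29-fold lower in replicate 1.

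Of the oxygen sensors, Egln3 (ENSMUSG00000035105, chr12:54178981-54203860, minus strand) had 763, 3669, 3325 and 6462 units in vehicle and 796, 3896, 3458 and 6712 units in acetate, 5.62-fold lower in replicate 1. Egln1 (ENSMUSG00000031987, chr8:124908587-124949324, minus strand), which encodes the main HIF prolyl hydroxylase, had a narrower range, with 2393, 4340.3, 3838 and 4908 units in vehicle and 2496, 4602, 4055 and 5210.1 units in acetate, and was 1.83-fold lower in replicate 1. The sensor Egln2, which is not among the 10, had 608 to 658 units in all 8 libraries.

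The secreted factors showed the same split. Vegfa (ENSMUSG00000023951, chr17:46016993-46032369, minus strand), the growth factor that drives vessel sprouting, had 497 units in vehicle replicate 1 and 2322, 2265 and 2555 units in vehicle replicates 2 to 4. In acetate it had 531 units in replicate 1 and 2479, 2156 and 3170.3 units in replicates 2 to 4, and replicate 1 was 4.80-fold lower than the others. Adm (ENSMUSG00000030790, chr7:110627661-110629820, plus strand), the vasodilator peptide adrenomedullin, which had the lowest level per kilobase, was at 35.1, 160.3, 137 and 363 units in vehicle and 68.3, 219.7, 164 and 362 units in acetate, and lay 4.36-fold lower in replicate 1. Its lowest library, vehicle replicate 1, rested on 46 reads. P4ha1 (ENSMUSG00000019916, chr10:59323296-59373304, plus strand), a subunit of the prolyl hydroxylase that matures collagen, had 1903, 5736, 5263 and 5408 units in vehicle and 2019, 6262, 5850.1 and 6480.1 units in acetate, 2.97-fold lower in replicate 1. It was the 1 gene of these 9 whose replicate 4 libraries did not lie above all others.

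**Figure D2:**
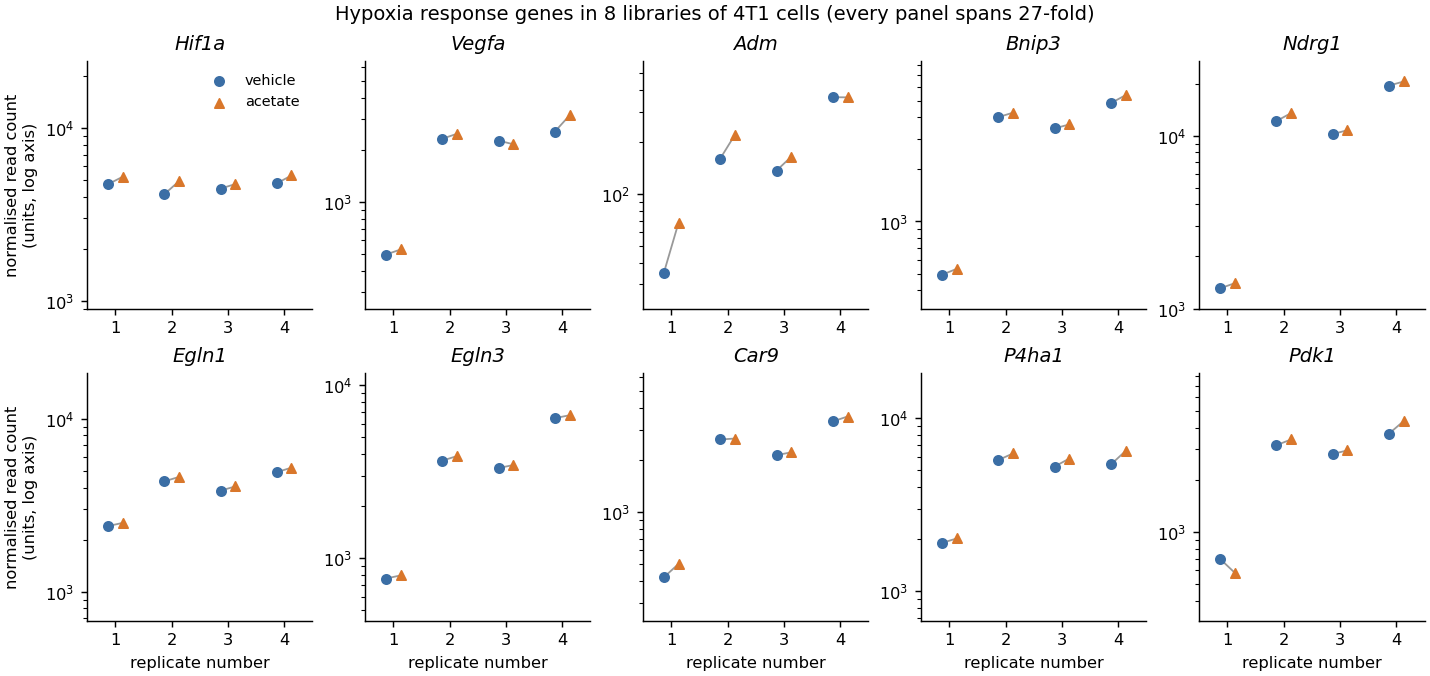
Normalised read count of each of the 10 genes (log axis, every panel spanning the same fold range) against replicate number, with blue circles for vehicle, orange triangles for acetate and a grey line joining each pair. Hif1a is nearly flat between 4120 and 5297 units, the other 9 genes are lowest in replicate 1, and for these 9 the step from vehicle to acetate within a pair is smaller than the gap between replicate 1 and the rest.

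All 10 genes differed between replicate numbers (limma moderated F with treatment in the model, adjusted p from 2.05e-13 for Ndrg1 to 0.0126 for Hif1a), which 58.2% of all genes did as well. Between replicates 2, 3 and 4 alone, 9 of the 10 genes differed, against 30.7% of all genes, and P4ha1 did not pass (adjusted p = 0.104). Without replicate 4, Hif1a did not pass (adjusted p = 0.0700). Replicate 1 was more than 4-fold below the mean of the others for 7 of the 10 genes, against 2.49% of the 10292 genes with a mean of at least 100 units. With median-of-ratios or quantile scaling the log2 difference of Adm was -1.93 or -1.43, less than 4-fold, and that of Hif1a, 0.08 as deposited, was 0.27 or 0.01, while the 9 genes other than Hif1a stayed lower in replicate 1 under both. Both replicate 1 libraries lay below all others for 9 of the 10 genes, which was so for 43.6% of those 10292 genes, and for 8 of the 10 the replicate 4 libraries were in addition the highest, against 18%. The replicate number held 93.6% to 99.9% of the variance of log2 values of the 9 genes and treatment held 0.0327% to 3.75%, whereas for Hif1a these shares were 40.7% and 51.8%.

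The libraries of replicate 1 held 26.2 and 25.5 M reads, and the other 6 held 19.9 to 29.3 M. Those of replicate 1 had the fewest genes above 0 (18169 and 18355, against 18691 to 19301 elsewhere), and the median gene with a mean of at least 100 units was lower there by 0.11 on the log2 scale. The 3 fibroblast markers summed to 229 and 394 units in replicate 1 and to 1049.5 to 1998 units in the others, almost all of it Pdgfra. The epithelial sum was 41789 and 43907 units in replicate 1 and 47644 to 55590 units elsewhere. The part of these differences in the levels of the 10 genes was not tested, and in bulk RNA fewer cells of a type and less RNA per cell cannot be told apart.

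As a description over 8 libraries that share 4 experiments, the 36 correlations (Pearson, log2 values) among the 9 genes other than Hif1a ran from 0.885 to 0.998 with a median of 0.984, and those of Hif1a with the 9 from -0.21 to 0.11. The 2 libraries of replicate 1 sit apart from the rest. Over the 6 remaining libraries, the 36 correlations ran from 0.293 to 0.993 with a median of 0.947, and those of Hif1a with the 9 from 0.576 to 0.733. Among all genes with a mean of at least 100 units, the 5 whose log2 levels were most like those of Vegfa were Zscan26, Bnip3, Dennd4b, Ikzf2 and Cul7 (r of 0.998 to 0.999). With replicate 1 left out these values were 0.913 to 0.948. Bnip3 ranked 2 in this list. Among the 10292 genes with a mean of at least 100 units, 241 had an r above 0.99, so that such a value was not particular to Bnip3. The 3 genes most unlike Vegfa were Vcp, Ola1 and Max (r of -0.998 to -0.999).

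The effect of acetate was taken within pairs, as the change from vehicle to acetate on the log2(value + 1) scale with the replicate number as a block in limma, so that each acetate library was set against the vehicle library of its own experiment. The differences were small and of 1 sign: all 10 mean changes were above 0, with a median of 0.11, beside a median of 0.00 for the 10292 genes with a mean of at least 100 units. Hif1a, P4ha1, Ndrg1 and Bnip3 passed the threshold of an adjusted p of 0.05, all 4 higher in acetate. This is 4 of 10, against 8.64% of all genes called in either direction and 5.99% called higher. Acetate was above vehicle in 4 of 4 pairs for 7 of the 10 genes, against 21.6% of the genes with a mean of at least 100 units, and the exceptions were Vegfa, Adm and Pdk1.

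**Figure D3:**
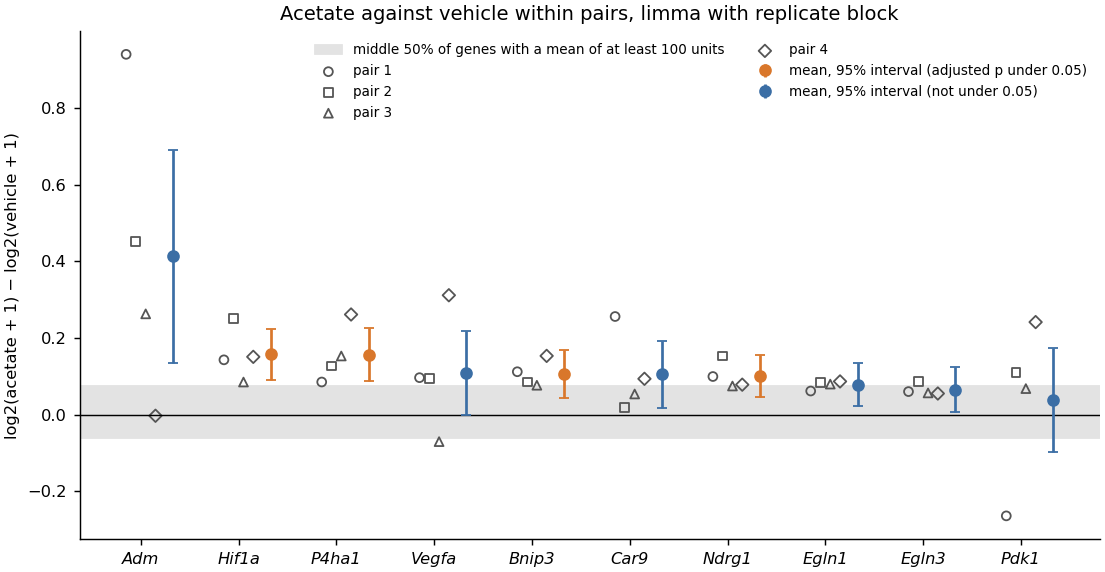
Change from vehicle to acetate on the log2(value + 1) scale for each gene, with open symbols for the 4 pairs, filled circles with bars for the mean and its 95% interval from limma with the replicate block, and a grey band for the middle 50% of genes with a mean of at least 100 units. The 4 orange genes passed at an adjusted p of 0.05, with changes of 0.10 to 0.16, while Adm had the largest mean change, 0.41, and the widest interval.

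Hif1a rose by 0.16 ± 0.03 (log2 change ± SE, n = 4 pairs, adjusted p = 0.00889), a fold of 1.11 with a 95% interval of 1.06 to 1.17. Its changes in pairs 1 to 4 were 0.14, 0.25, 0.08 and 0.15, and although every pair moved up, the lowest acetate library (4720 units) lay below the highest vehicle library (4772 units). P4ha1 rose by the same 0.16 ± 0.03 (adjusted p = 0.0111, fold 1.11), with pair changes of 0.08, 0.13, 0.15 and 0.26. Ndrg1 rose by 0.10 ± 0.03 (adjusted p = 0.0300, fold 1.07, pairs from 0.07 to 0.15) and Bnip3 by 0.11 ± 0.03 (adjusted p = 0.0408, fold 1.08, pairs from 0.08 to 0.15). Without regard to pairs, the vehicle and acetate groups overlapped for each of the 10 genes. The groups did not overlap for 1.59% of the 10292 genes with a mean of at least 100 units.

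The other 6 genes did not pass. Vegfa had a mean change of 0.11 (95% interval -0.002 to 0.22, adjusted p = 0.233), with pair values of 0.10, 0.09, -0.07 and 0.31, so that it was lower in acetate in pair 3. Adm had a mean change of 0.41 (95% interval 0.14 to 0.69, adjusted p = 0.0696), and its pairs ran from 0.94 in replicate 1, where it was lowest, through 0.45 and 0.26 to -0.003 in replicate 4, where it was highest. Pdk1 had 0.04 (95% interval -0.10 to 0.17, adjusted p = 0.790), with -0.26 in pair 1 and 0.11, 0.07 and 0.24 in the others. Egln1 had 0.08 (0.02 to 0.13, adjusted p = 0.0891), Car9 0.11 (0.02 to 0.19, adjusted p = 0.140) and Egln3 0.06 (0.01 to 0.12, adjusted p = 0.180), each above 0 in 4 of 4 pairs. The pairs of Car9 were at 0.26, 0.02, 0.05 and 0.09, and its mean change was 0.055 without replicate 1 (adjusted p = 0.356). The mean change of Adm was 0.24 without replicate 1 (adjusted p = 0.153) and 0.24 in edgeR on 8 libraries. That of Vegfa was 0.04 without replicate 4 (adjusted p = 0.691) and 0.17 without replicate 3 (adjusted p = 0.146).

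These calls rest on the pairing and on few libraries. Without the block no gene of the table passed (0%), none of the 10 had an unadjusted p under 0.05 and 353 of all genes did. Leaving out replicate 1, 2, 3 or 4 left 3, 0, 1 and 0 of the 10 genes called. Over all genes of the table the same fits called 1662, 617, 409 and 539, against 1744 with all replicates. Hif1a had adjusted p-values of 0.0167, 0.0821, 0.0471 and 0.0707 in these fits and P4ha1 had 0.00702, 0.0591, 0.0989 and 0.0740, while Ndrg1 (0.0510 to 0.210) and Bnip3 (0.0606 to 0.175) passed in none of them. Pdk1 passed without replicate 1 (change 0.14, adjusted p = 0.0433) and turned to -0.03 without replicate 4. With median-of-ratios or quantile scaling Hif1a and P4ha1 passed and Ndrg1 and Bnip3 did not (adjusted p from 0.0570 to 0.0898). The share of all called genes that were higher in acetate was 69.3% as deposited, 54.9% with median-of-ratios scaling and 60.5% with quantile normalisation, and the changes of all 10 genes stayed above 0 under both scalings.

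The rest of the pathway was read from 78 further genes in 5 lists, of which 71 were in the table and 17 passed (15 higher, 2 lower) beside the 8.64% of all genes. None of the 14 HIF subunits and oxygen-sensing genes passed. Among the most abundant, Elob, part of the VHL ligase, had a mean change of 0.06 (adjusted p = 0.267), Cited2, an inhibitor of HIF binding to p300, had 0.05 (adjusted p = 0.779), and Ep300, the acetyltransferase coactivator p300, had -0.10 (adjusted p = 0.118, and 0.0368 in edgeR on 8 libraries). The median change over this list was 0.004. Epas1, which encodes HIF-2α, stayed at or under 5.70 units, and Arnt, the partner of HIF-1α, had 889 to 1601 units and a mean change of -0.002 (adjusted p = 0.984).

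Of the VEGF ligands and receptors 7 of 9 were in the table and 3 passed, all higher. Pgf, the placental growth factor that binds the receptor FLT1, had 30.5, 179.9, 164 and 326 units in vehicle and 54.2, 282, 192 and 405 units in acetate, and rose by 0.50 ± 0.10 (adjusted p = 0.0117). It was higher in acetate in every pair, and its order across experiments was that of Ndrg1, lowest in replicate 1 and highest in replicate 4. Flt1, a receptor for VEGF-A and Pgf, had 535, 1188, 1112 and 863 units in vehicle and 651, 1372, 1299 and 1060.1 units in acetate, and rose by 0.25 ± 0.04 (adjusted p = 0.00182). Vegfd, named after its values were seen, passed at a mean of 6.22 units (change 1.63, adjusted p = 0.0208), where few reads were counted. Vegfb had a mean change of 0.08 (adjusted p = 0.442), and the co-receptors Nrp1 and Nrp2 had 0.37 (adjusted p = 0.0522) and -0.08 (adjusted p = 0.112). Nrp1 passed without replicate 1 (0.54, adjusted p = 0.00168). It also passed with quantile normalisation, with genes under 10 units removed, in edgeR on 8 libraries and in DESeq2 (adjusted p from 0.0214 to 0.0491). Nrp1 did not pass with pseudocounts of 0.1 or 5 or with median-of-ratios scaling (adjusted p from 0.0552 to 0.0963). Nor did it without replicate 2, 3 or 4 (0.169 to 0.304) or in edgeR without vehicle replicate 3 (0.163). In pair 1 it was lower in acetate (-0.13), and in the other pairs higher. Nrp2 passed without replicate 1 (-0.12, adjusted p = 0.0244) and in edgeR on 8 libraries (adjusted p = 0.0275). Of the adrenomedullin receptor genes 5 of 6 were in the table and none passed: Ackr3, a decoy receptor, had a mean change of -0.05 (adjusted p = 0.522), Ramp1 had a mean of 35.1 units with a change of 0.57 (adjusted p = 0.198), or 0.27 without replicate 1, whose libraries held 1 and 5 reads of it, and Calcrl, the receptor itself, had a mean of 7.29 units with a change of 0.28 (adjusted p = 0.667).

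Among relatives and partners of the 10 genes, 16 of 17 were in the table, 4 passed as higher and 1 as lower. P4ha2, the sister subunit of P4ha1, had 257, 1187, 1026 and 1106 units in vehicle and 317, 1523, 1309 and 1476 units in acetate, and rose by 0.36 ± 0.04 (adjusted p = 0.000355). The step was seen in every pair and the mean change was larger than that of P4ha1, a difference that was not tested. Ndrg4 rose by 0.48 ± 0.09 (adjusted p = 0.00639) from a vehicle mean of 120.4 units, Ndrg2 by 0.46 ± 0.10 (adjusted p = 0.0163) from 92.1 units, and Bnip3l, which like Bnip3 directs mitochondrial removal, by 0.11 ± 0.03 (adjusted p = 0.0241) from 5010.1 units. Pdhb, a subunit of the pyruvate dehydrogenase that Pdk1 inhibits, fell by 0.11 (adjusted p = 0.0397), while its partners Pdha1 and Dlat each had a mean change of -0.07 (adjusted p = 0.150 and 0.308). P4hb, the partner subunit of P4ha1, had a mean change of 0.05 (adjusted p = 0.357).

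Of 32 other HIF target genes 29 were in the table, 8 passed as higher and 1 as lower. Plod1, a collagen lysyl hydroxylase, rose by 0.35 ± 0.06 (adjusted p = 0.00592), Plin2, a lipid droplet coat protein, by 0.20 ± 0.03 (adjusted p = 0.00130), the Myc antagonist Mxi1 by 0.18 ± 0.03 (adjusted p = 0.00451) and the repressor Bhlhe40 by 0.14 ± 0.03 (adjusted p = 0.0174). Smaller rises of 0.11 to 0.12 were called for Hk2 and Ldha, enzymes of glycolysis, for the mTOR inhibitor Ddit4 and for Fam162a (adjusted p from 0.0212 to 0.0412). Aldoa, Eno1 and Pgk1, the other abundant glycolytic genes, had changes of 0.10, 0.07 and 0.06 and did not pass (adjusted p = 0.0507, 0.0981 and 0.171). Aldoa passed without replicate 1 (0.13, adjusted p = 0.0155). It also passed with quantile normalisation, with genes under 10 units removed and in edgeR on 8 libraries (adjusted p from 0.0329 to 0.0393). Stc2, a secreted stanniocalcin, went the other way, with 289, 833, 778 and 647 units in vehicle and 196, 573, 625 and 537 units in acetate, and fell by 0.42 (SE 0.06, adjusted p = 0.00150), lower in 4 of 4 pairs.

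Leaving out 1 replicate at a time left Flt1, P4ha2, Plin2, Mxi1 and Stc2 called in each of the 4 fits. Pgf was lost without replicate 2 or 4 (adjusted p = 0.0936 and 0.0756), Plod1 without replicate 4 (adjusted p = 0.0866), Ndrg4 and Ndrg2 without replicate 2, 3 or 4 (adjusted p from 0.0526 to 0.118) and Pdhb whichever replicate was left out (0.0776 to 0.214). Bnip3l (0.0560 to 0.112) and Ddit4 (0.0974 to 0.189) were likewise lost in each of the 4 fits, Hk2, Ldha and Fam162a without replicate 2, 3 or 4 (0.0813 to 0.220), and Bhlhe40 without replicate 1, 3 or 4 (0.0517 to 0.134). The fibroblast markers Pdgfra (change 0.52, adjusted p = 0.000372) and Pdgfrb (change 1.40, adjusted p = 0.0119) rose with acetate as well, each in 4 of 4 pairs. Dcn had 0.72 (adjusted p = 0.314), and the 3 fibroblast markers in the table summed to 229 to 1523 units in vehicle and 394 to 1998 units in acetate. Of the epithelial markers, Krt14 (change 0.36, adjusted p = 0.00405) and Cdh1 (0.15, adjusted p = 0.00592) were likewise higher in 4 of 4 pairs. Epcam (0.07), Krt8 (-0.06) and Krt18 (-0.05) did not pass (adjusted p = 0.154, 0.214 and 0.363). The part of these marker changes in the changes of the collagen-modifying genes P4ha1, P4ha2 and Plod1 was not tested.

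**Figure D4:**
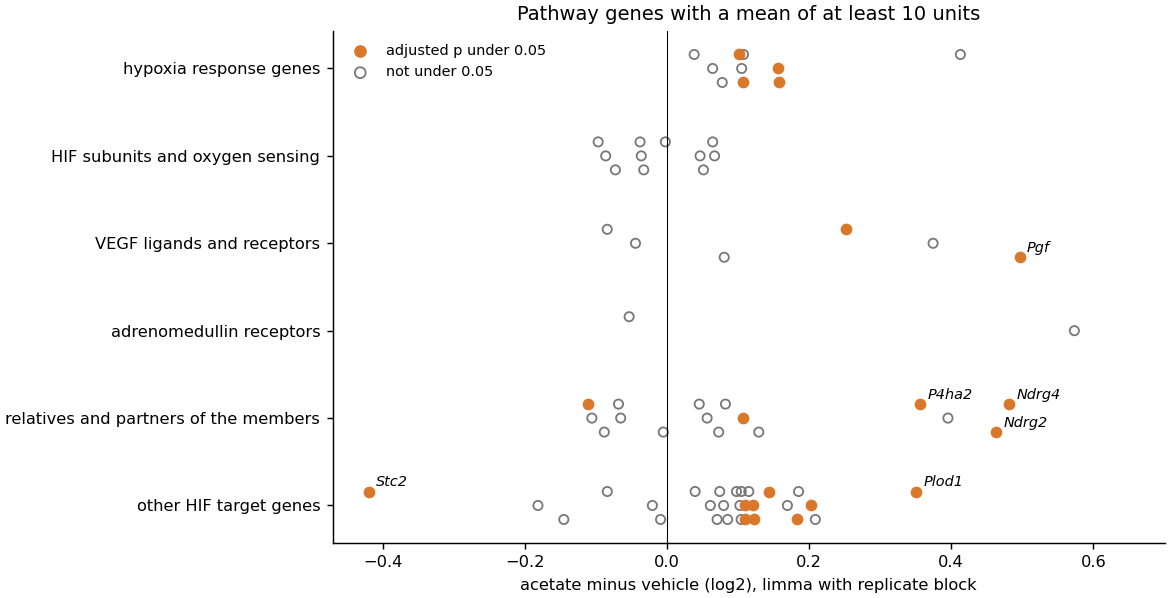
Change from vehicle to acetate (log2, limma with the replicate block) for the 10 genes and for each list of related genes with a mean of at least 10 units, where orange circles passed at an adjusted p of 0.05 and open circles did not. The HIF subunits and oxygen-sensing genes hold no called gene, and the called changes run from Stc2 at -0.42 to Pgf at 0.50.

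Differences between the experiments extended over these lists. Of the 71 genes, 61 differed between replicate numbers, beside the 58.2% of all genes. Of all genes with a mean of at least 100 units, 2.49% were more than 4-fold lower in replicate 1, and of the 58 list genes at that level 7 were. These were Ankrd37 (-3.60 on the log2 scale), Ddit4 (-3.13), Vldlr (-2.99), Pgf (-2.55), Ndrg2 (-2.41), P4ha2 (-2.14) and Ero1a (-2.11), of which Ankrd37, Vldlr and Ero1a are named for their size after their values were seen. Among genes with a mean of at least 100 units, the median difference was -0.11 for all genes. It was -0.72 for other HIF target genes, 0.04 for HIF subunits and oxygen-sensing genes, and -2.33 for the 10 genes. The sizes of the 2 differences did not go together for every gene: Ndrg1 was at -3.36 between experiments and 0.10 with acetate, Pgf at -2.55 and 0.50, and Plin2 at -0.05 and 0.20.

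**Figure D5:**
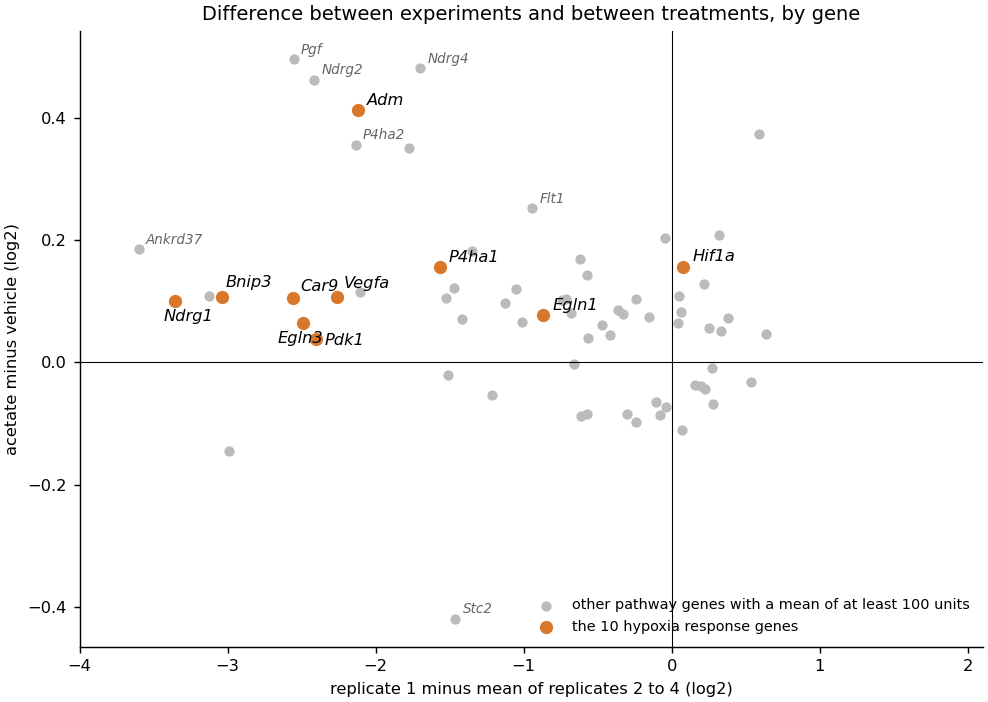
Change with acetate (log2, vertical axis) against the difference of replicate 1 from the mean of replicates 2 to 4 (log2, horizontal axis), with orange points for the 10 genes and grey points for other pathway genes with a mean of at least 100 units. The 10 genes spread from -3.36 to 0.08 along the horizontal axis and 9 of them lie between 0.04 and 0.16 on the vertical axis, with Adm at 0.41.

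Several of the 10 genes share exon sequence with genes on the opposite strand in GENCODE M21, and whether the counting used strand is not given in the sources used here. Hif1a overlaps Gm15283 (mean 69.3 units), Car9 overlaps Gm12454 (55.8 units) and Ndrg1 overlaps Gm17035 and Gm2895 (2.28 and 35.5 units), all far below the level of the gene itself. Bnip3 overlaps Gm45507, and Hif1a overlaps Gm49321 on the same strand, which were not analysed here.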

How the data were processed

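Poly-A RNA of 8 samples of 4T1 cells, 4 with acetate and 4 with vehicle, was sequenced from stranded libraries. The authors aligned reads to GRCm38 with STAR (the submitters' processing notes also name HTSeq, versions not given in the sources used here). The deposited signal is the read count of a gene divided by the library total, and each listed gene was above 0 in at least 4 libraries. Values were whole multiples of 1 read (100%, tolerance 0.1), so reads were recovered for count tests. Of 20189 identifiers, 20004 had a GENCODE M21 symbol.

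The main fit was limma 3.58.1 (R 4.3.3, lmFit, eBayes with trend, two-sided) on log2(value + 1), which understates changes of low genes, with the replicate number as a block and Benjamini-Hochberg adjustment over all genes. The study ranked genes unpaired. Same-numbered libraries share a label code, and their deviations from group means correlated at 0.81, 0.27, 0.20 and 0.69. Alternatives were no block, pseudocounts of 0.1 and 5, a minimum mean of 10 units, other scalings, DESeq2 1.42.0, leaving out each replicate, and edgeR 4.0.16, which called 2400 genes on 8 libraries. Chosen after seeing the data, edgeR without vehicle replicate 3, in which 1 read was worth 1.01 units, called 1350. Fits were tested on simulated data. The members and lists were chosen with earlier results of these data known. List genes were named where they passed with a mean of at least 10 units, with up to 3 others of highest mean per list. Kdr, Flt4, Adm2, Pdk4, Slc16a3, Lox and Epo were not analysed here, and 1 further list gene is not reported here.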

Additional observations from a re-analysis of the deposited data

Results flagged for a closer look

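In groups of 4 libraries, the gap between the lowest or highest library and its neighbour was set against the whole range of the group (Dixon's ratio, at its 95% critical value). Of 82 groups tested, 9 passed, where chance gives about 1 in 20 (4.1), and in all 9 the outlying library was that of replicate 1. Among the 10 genes, vehicle replicate 1 was the outlier for Vegfa (ratio 0.859, 497 units against 2265 to 2555 in the other vehicle libraries) and for P4ha1 (0.876, 1903 against 5263 to 5736 units), and acetate replicate 1 for P4ha1 (0.859, 2019 against 5850.1 to 6480.1 units). The other genes listed in the pathway gave 6. Ddit4 was lowest in replicate 1 in vehicle (0.947) and in acetate (0.969), as was Ackr3 (0.913 and 0.836). Nrp2 was lowest in vehicle replicate 1 (0.873) and Vegfb in acetate replicate 1 (0.937).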

How the results depend on the processing

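Without the replicate block, 0 genes of the table, 0 of the 10 members and 0 of the 71 pathway genes were called. The 4 called members became 2, Hif1a and P4ha1, with median-of-ratios scaling, quantile normalisation, edgeR on 8 or 7 libraries and DESeq2. DESeq2 called 1126 genes and 9 pathway genes, against 1744 and 17. In DESeq2 Bnip3l, Ndrg2, Pdhb, Hk2, Ldha, Ddit4, Fam162a and Bhlhe40 were no longer called (adjusted p from 0.0543 to 0.182). With median-of-ratios scaling Bnip3l, Hk2, Ldha and Ddit4 were lost (adjusted p from 0.0575 to 0.0822). Leaving out 1 replicate gave 409 to 1662 called genes, 0 to 3 called members and 6 to 19 called pathway genes, with 9 to 10 members and 41 to 61 pathway genes differing between replicate numbers. In these fits Pdk1 ran from -0.0293 (without replicate 4) to 0.14 and Cited2 from -0.0652 (without replicate 1) to 0.13. Vegfb ran from 0.03 to 0.14, Elob from 0.04 to 0.09 and P4hb from 0.02 to 0.07. Ackr3 ran from -0.08 to -0.009 and Calcrl from 0.11 to 0.54. Vegfb, Elob, P4hb, Ackr3 and Calcrl passed in none of these fits. Adm passed when genes with a mean under 10 units were removed (5 members called). Pseudocounts of 0.1 and 5 left 3 and 4 members called. Every other change of a member kept its direction in all settings run. The cause of these shifts was not tested. Genes with a mean under 10 units, such as Vegfd and Calcrl, rest on few reads.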
